A study of Mus musculus with 9 samples.

Results

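Colonic expression of 35 genes of fatty acid oxidation and ketone body metabolism was compared between wild-type mice kept in a standard environment (WT_SE) and in an enriched environment (WT_EE). The genes were taken by symbol from a list of butyrate uptake, fatty acid oxidation, ketone and PPAR genes, written with earlier results of these data known, and no measured value enters the rule. All 35 had counts, among 22262 genes with a count in any mouse. The animals were female C57BL/6N mice aged 12 months without a transgene, 4 in WT_SE (mice 1, 2, 3 and 5) and 5 in WT_EE (mice 1 to 5). WT_SE mice lived in standard cages, whereas WT_EE mice lived in larger groups in bigger cages with running wheels, tunnels and other objects. Each library came from 1 mouse and a flushed piece of tissue labelled as upper colon, and position markers differed between pieces, as described below. All WT_EE mice may have shared a cage, so effects of cage and of environment cannot be told apart. A difference may therefore come from fewer cells of a type or from less RNA per cell, which cannot be told apart in such tissue.

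Colonocytes, the absorptive cells of the colon lining, take up butyrate made by gut bacteria and burn it in mitochondria. Longer fatty acids are first bound to coenzyme A, carried across the inner mitochondrial membrane as carnitine esters, and shortened in repeated rounds of dehydrogenation, hydration, dehydrogenation and thiolysis. The acetyl-CoA formed is oxidized or turned into ketone bodies, and nuclear receptors of the PPAR family regulate many of the genes involved.

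Three-prime sequencing with unique molecular identifiers was used, in which each counted molecule is read next to its 3′ end. Longer transcripts therefore gain no extra counts. Counts of the most abundant genes grew less than library totals, as given at the end, so the order of levels between genes is a rough one. Values are given as normalized count-per-million (CPM) values, scaled by the TMM method, and library totals lay between 295535 and 454043 counts. The floor of a detectable level was set at 3 counts. Changes are log2 fold changes of WT_EE against WT_SE from edgeR's quasi-likelihood test over the 17441 genes that reached 4 CPM in at least 1 library, and a gene was called at an unadjusted p-value under 0.05. Adjusted p-values are Benjamini-Hochberg values over all of these genes. The labels number mice within each environment and do not link the environments, and intervals on counts cover counting error only.

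All 35 genes passed the filter, and 32 of them were above the floor in every mouse. The exceptions were Acot1, Ehhadh and Pdk4. Oxct1 had the highest mean level, 315 CPM over the 9 mice, followed by Hadh at 274 CPM, Acads at 242 CPM, and Slc16a1 and Hadha at 234 CPM each. At the other end were Acot2 at 32.7 CPM, Ehhadh at 9.54 CPM, Acot1 at 6.08 CPM and Pdk4 at 5.06 CPM. A mean of at least 100 CPM was reached by 17 genes, and 22 genes differed by less than 2-fold between the lowest and the highest mouse.

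**Figure D1:**
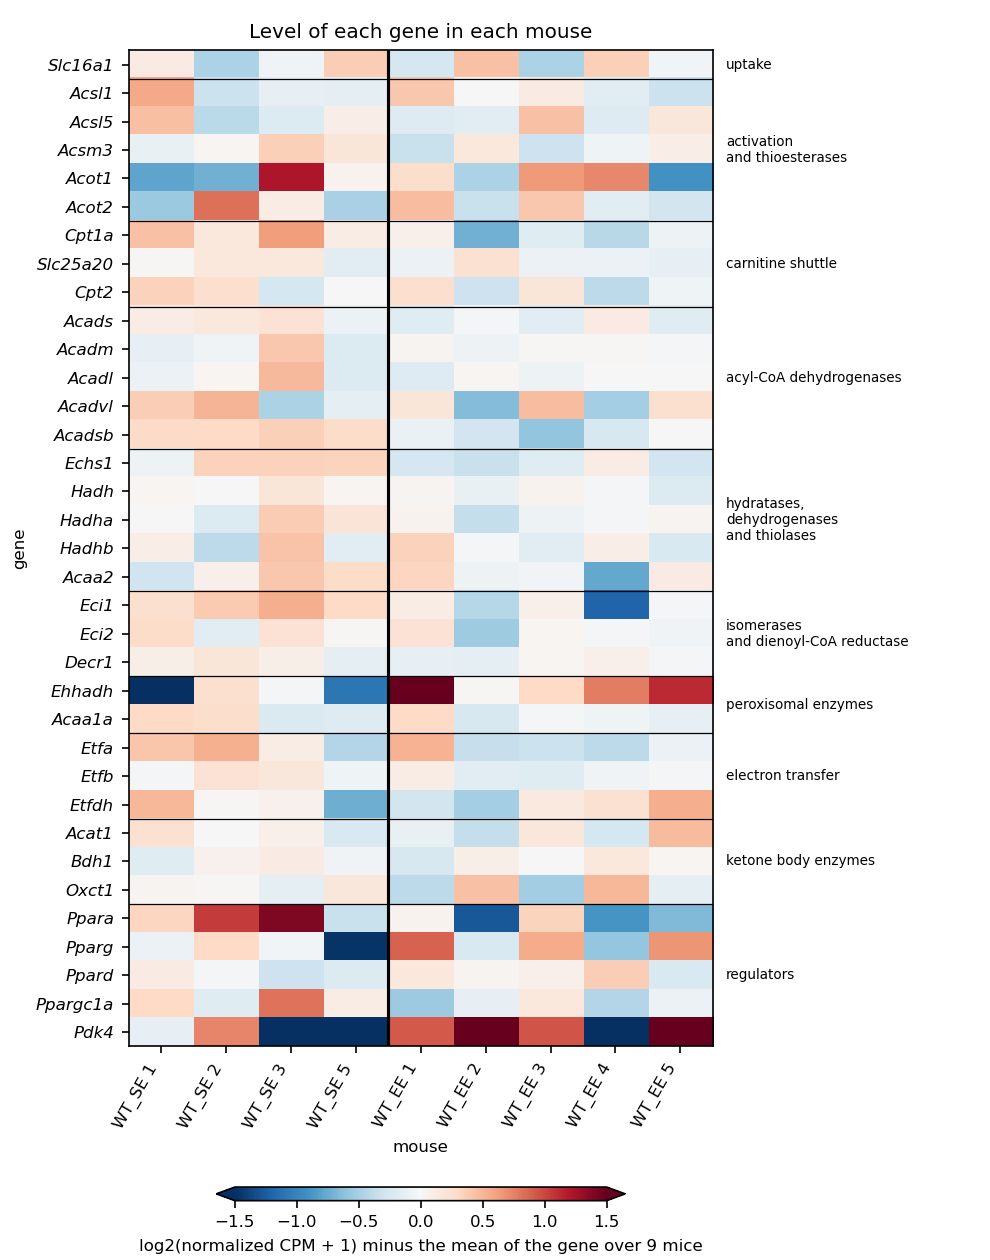
Level of each of the 35 genes (rows, grouped by role) in each mouse (columns, WT_SE left of the line and WT_EE right of it), as log2(normalized CPM + 1) minus the mean of the gene over 9 mice. Red is above and blue below the mean, and Cpt1a, Acadsb and Eci1 were higher in every WT_SE mouse than in any WT_EE mouse.

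Between environments, 8 of the 35 genes (22.9%) had an unadjusted p-value under 0.05, beside 1334 of all 17441 genes tested (7.65%). Lower in WT_EE were 6 genes (17.1%; 3.34% of all genes), namely Ppara, Cpt1a, Echs1, Eci1, Acadsb and Ppargc1a. Higher in WT_EE were Ehhadh and Pparg, 5.71% of the 35 beside 4.31% of all genes. By edgeR with Benjamini-Hochberg adjustment none of the 35 genes was below 0.05, against 0.0401% of all genes, and the lowest adjusted p-value was 0.202. DESeq2 and limma-voom also gave 0 of 35 after adjustment. Well counted genes were called more often than others, and the 30 members with a mean of at least 20 counts held 7 calls, 6 of them lower, beside 10.3% called and 5.06% lower among the 5812 genes of that level. For Cpt1a, Acadsb and Eci1 every WT_EE mouse was below every WT_SE mouse, which is 8.57% of the 35 genes beside 1.20% of all genes. No member had all WT_EE mice above all WT_SE mice, a pattern found in 1.38% of all genes. The median log2 fold change of the 35 genes was -0.08 against 0.01 over all genes, and 68.6% of the members and 48.9% of all genes had a negative value. WT_SE mouse 3 had the highest level of all mice for 15 of the 35 genes, and calls lost on leaving out 1 mouse are given with their gene.

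**Figure D2:**
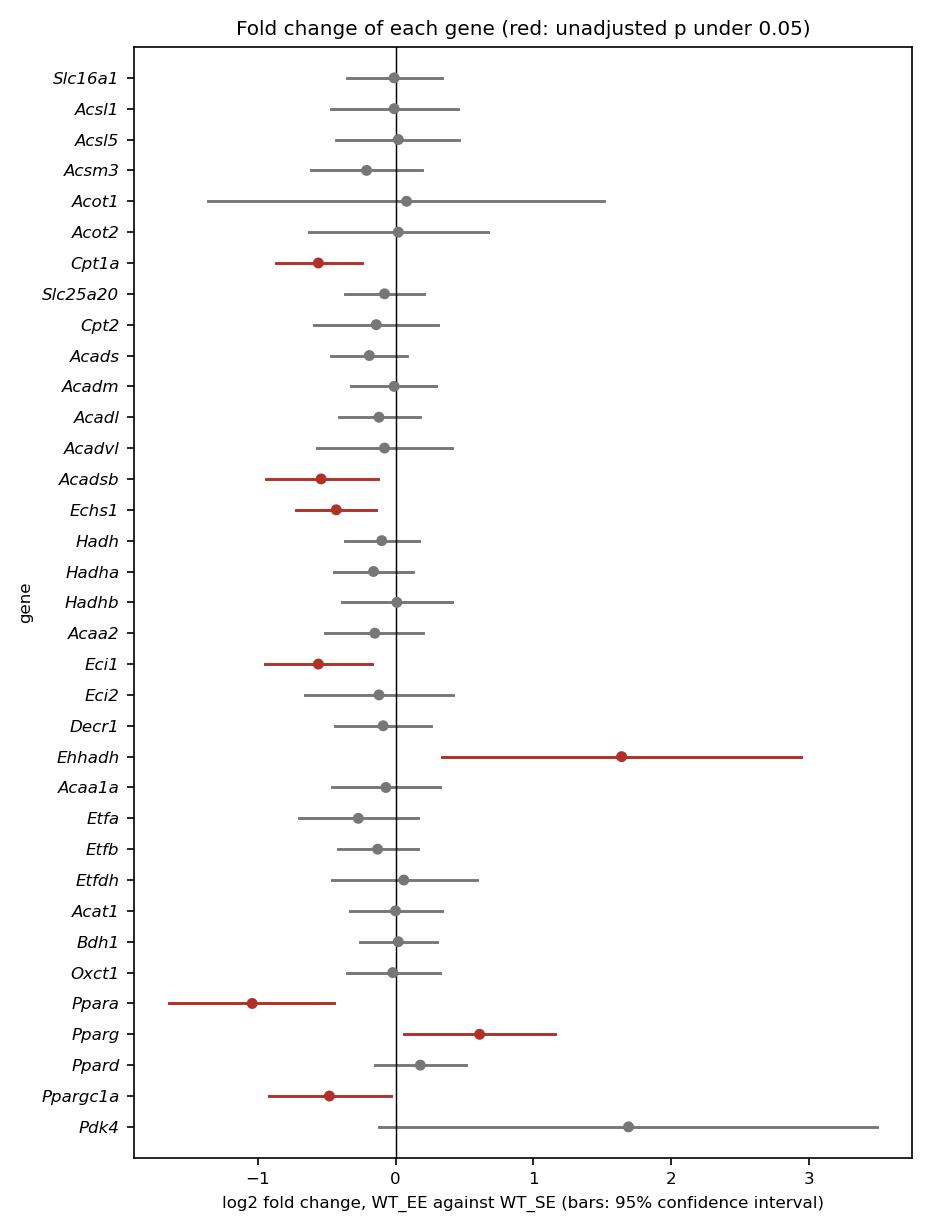
Log2 fold change of WT_EE against WT_SE (horizontal axis) for each of the 35 genes, with its 95% confidence interval from edgeR; red marks an unadjusted p-value under 0.05. The 6 lower calls lie between -1.04 (Ppara) and -0.43 (Echs1), and the widest intervals belong to Acot1, Ehhadh and Pdk4.

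Promoter windows are shown for Cpt1a and Echs1, the called enzymes with a PPAR-type half-site, and for Ppara, the receptor with the largest fall. The windows run from 250 bases before to 50 bases after the RefSeq start on GRCm38.p6, 5′ to 3′ on the gene's strand, and capitals mark the half-site AGGTCA or its reverse complement TGACCT. The Cpt1a window is chr19:3323051-3323350 on the plus strand, that of Echs1 is chr7:140116372-140116671 on the minus strand, and that of Ppara is chr15:85735526-85735825 on the plus strand.
Cpt1a: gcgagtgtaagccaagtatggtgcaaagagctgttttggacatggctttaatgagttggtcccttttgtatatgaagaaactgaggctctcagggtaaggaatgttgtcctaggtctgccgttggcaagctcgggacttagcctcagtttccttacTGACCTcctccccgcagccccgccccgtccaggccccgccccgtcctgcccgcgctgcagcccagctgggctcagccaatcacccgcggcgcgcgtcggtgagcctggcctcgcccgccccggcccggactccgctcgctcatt
Echs1: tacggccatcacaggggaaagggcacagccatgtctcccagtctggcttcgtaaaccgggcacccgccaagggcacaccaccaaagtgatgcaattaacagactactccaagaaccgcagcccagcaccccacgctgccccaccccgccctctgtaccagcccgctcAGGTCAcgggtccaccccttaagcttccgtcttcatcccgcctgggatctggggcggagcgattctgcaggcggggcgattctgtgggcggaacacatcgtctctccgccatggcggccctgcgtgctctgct
Ppara: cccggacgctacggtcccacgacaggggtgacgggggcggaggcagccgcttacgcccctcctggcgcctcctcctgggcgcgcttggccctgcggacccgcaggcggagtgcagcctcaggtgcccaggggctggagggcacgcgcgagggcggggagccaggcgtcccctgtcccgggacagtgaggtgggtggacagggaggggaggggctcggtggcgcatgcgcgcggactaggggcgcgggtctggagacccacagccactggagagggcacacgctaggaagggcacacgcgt
The half-site was present on either strand in 6 of the 36 windows of the 32 members found in the promoter table (16.7%), and in 16.3% of all 32851 windows. The members with it were Cpt1a, Echs1, Acadm, Acadvl and Pparg, the last in both of its upstream windows. The direct repeat AGGTCANAGGTCA, which contains the half-site at either end, was in no member's window and in 13 of all windows (0.0396%). The windows of Hadha and Hadhb, which encode the subunits of one enzyme, lie head to head on chromosome 5 and share 228 bases.

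Uptake was represented by Slc16a1, the monocarboxylate transporter MCT1, which carries butyrate, lactate and ketone bodies (chromosome 3, 104638668 to 104658462, plus strand). Its levels were 248, 164, 220 and 295 CPM in WT_SE mice 1, 2, 3 and 5, and 190, 310, 164, 291 and 222 CPM in WT_EE mice 1 to 5. The ranges overlapped almost entirely, with WT_EE mice 2 and 4 and WT_SE mouse 5 highest. The mean and SD were 232 ± 54.7 CPM in the 4 WT_SE mice and 235 ± 63.3 CPM in the 5 WT_EE mice, a format kept for the other genes, and the log2 fold change was -0.01 (SE 0.17, 95% confidence interval -0.35 to 0.34, edgeR adjusted p = 0.992). All 8 smooth muscle markers listed had positive log2 fold changes, and 3 were called higher in WT_EE (37.5%, beside 7.65% of all genes called). Their summed level was also highest in WT_EE mice 2 and 4 (3855 and 3782 CPM, against 2105 to 2681 CPM in the other mice). With that level as a covariate the Slc16a1 value was -0.27 (edgeR unadjusted p = 0.0413). Both mice also had the smallest library totals of WT_EE, 295535 and 336967 counts, and whether either goes with Slc16a1 was not tested.

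Enzymes that bind fatty acids to coenzyme A, or release them from it, held no call. Acsm3, a medium-chain acyl-CoA synthetase that also accepts butyrate, was the most abundant of the 5. It measured 78.3, 86.3, 108 and 95.7 CPM in WT_SE, and 66.9, 94.1, 67.8, 80.4 and 90.2 CPM in WT_EE. The groups overlapped, with means of 92.1 ± 12.9 and 79.9 ± 12.5 CPM and a log2 fold change of -0.21 (SE 0.20, edgeR unadjusted p = 0.293, Benjamini-Hochberg adjusted p = 0.849). The long-chain acyl-CoA synthetases Acsl1 and Acsl5 averaged 71.8 and 75.3 CPM in WT_SE and 71.3 and 76 CPM in WT_EE, with log2 fold changes of -0.01 and 0.02. Acot2, a mitochondrial thioesterase, had 33.1 and 32.5 CPM. Its cytosolic relative Acot1 had 6.1 and 6.06 CPM, and 7.21% of the 50-base words in the last 500 bases of its transcripts also occur in another gene, Acot2.

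The carnitine shuttle held the member with the smallest p-value. Cpt1a encodes the liver-type carnitine palmitoyltransferase 1 of the outer mitochondrial membrane, which catalyses the rate-limiting step of long-chain fatty acid entry (chromosome 19, 3322334 to 3385733, plus strand). It measured 258, 212, 294 and 205 CPM in WT_SE mice 1, 2, 3 and 5, and 201, 115, 168, 142 and 180 CPM in WT_EE mice 1 to 5, from 33 to 99 counts per library. All WT_EE mice lay below all WT_SE mice, although WT_EE mouse 1 and WT_SE mouse 5 were close. The means were 242 ± 42 and 161 ± 33.5 CPM, and Cpt1a was lower in WT_EE with a log2 fold change of -0.56 (SE 0.16, edgeR unadjusted p = 0.00106, Benjamini-Hochberg adjusted p = 0.202). An exact permutation test of the normalized levels gave p = 0.0159 (two-sided, smallest possible 0.00794). The library names of WT_SE mice 1 and 3 hold L3 and those of all other mice L2, and with this part of the name as a covariate the value was -0.34 (unadjusted p = 0.0803). Within the L2 libraries alone it was -0.33 (unadjusted p = 0.0951), with 2 WT_SE mice left.

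The other steps of the shuttle were not called. Slc25a20, the carnitine-acylcarnitine carrier of the inner membrane, averaged 197 ± 20.4 CPM in WT_SE and 187 ± 20.4 CPM in WT_EE, with a log2 fold change of -0.08. Cpt2, which returns the acyl group to coenzyme A inside the mitochondrion, averaged 70.3 ± 13.1 and 63.3 ± 12.7 CPM, with a log2 fold change of -0.14 and an interval of -0.59 to 0.31. A difference of the size measured for Cpt1a thus lies inside the interval for Cpt2 and outside that for Slc25a20 (-0.37 to 0.21). The interval of Cpt1a itself, -0.87 to -0.24, overlapped both, and a difference in change between these genes was not tested.

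Among the 5 acyl-CoA dehydrogenases, which open each round of oxidation, 1 was called, and all 5 had negative fold changes. Acadsb encodes the short/branched-chain enzyme, best known in the breakdown of isoleucine (chromosome 7, 131410601 to 131448944, plus strand). Its levels were 94, 94.7, 98.1 and 92.9 CPM in WT_SE, and 71.2, 62.7, 50.3, 64.9 and 76.4 CPM in WT_EE, from 18 to 36 counts. The WT_SE mice were within a few CPM of each other, and every WT_EE mouse was below them. The means were 94.9 ± 2.23 and 65.1 ± 9.87 CPM, and Acadsb was lower by a log2 fold change of -0.54 (SE 0.20, edgeR unadjusted p = 0.0106, Benjamini-Hochberg adjusted p = 0.432). The exact permutation test gave its smallest possible value, p = 0.00794 (two-sided). Without the 4 mice with over 100 counts of Slc10a2, described further on, the value was -0.44 (unadjusted p = 0.13), and among L2 libraries it was -0.51 (unadjusted p = 0.0515). The span of Acadsb overlaps Fgfr2 on the other strand, and the strand setting of the counting is not given in the sources used here.

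Acads, the short-chain enzyme that acts on butyryl-CoA, was the most abundant dehydrogenase. It measured 261, 270, 281 and 227 CPM in WT_SE, and 212, 237, 216, 263 and 213 CPM in WT_EE. WT_EE mice 2 and 4 lay within the WT_SE range and the other WT_EE mice below it. The log2 fold change was -0.19 (SE 0.14, edgeR adjusted p = 0.765), and without WT_EE mice 2 and 4 it was -0.28 (unadjusted p = 0.032). Acadm, the medium-chain enzyme, measured 159, 167, 230 and 150 CPM in WT_SE, and 179, 164, 175, 176 and 171 CPM in WT_EE. The WT_EE mice lay inside the WT_SE range, and the log2 fold change was -0.01 (SE 0.15, edgeR unadjusted p = 0.924, adjusted p = 0.992). Acadl, the long-chain enzyme, had means of 231 and 212 CPM (log2 fold change -0.12), and Acadvl, the very-long-chain enzyme, had 72.1 and 66.8 CPM (-0.08). WT_SE mouse 3 was highest of all mice for Acads, Acadm, Acadl and Acadsb but was low for Acadvl, at 47.3 CPM.

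Of the 5 genes for the middle and last steps of the spiral, Echs1 was called. It encodes the mitochondrial short-chain enoyl-CoA hydratase (chromosome 7, 140105710 to 140116476, minus strand). Echs1 measured 204, 273, 274 and 271 CPM in WT_SE, and 179, 171, 190, 232 and 176 CPM in WT_EE, from 49 to 99 counts. WT_SE mouse 1 fell below WT_EE mouse 4, and the other mice of the 2 groups did not overlap. The means were 255 ± 34.5 and 190 ± 24.7 CPM, and the gene was lower in WT_EE with a log2 fold change of -0.43 (SE 0.14, edgeR unadjusted p = 0.00501, Benjamini-Hochberg adjusted p = 0.34; exact permutation test p = 0.0238, two-sided). In the 5 mice with at most 100 counts of Slc10a2 it was -0.30 (unadjusted p = 0.132). Echs1 overlaps Paox on the other strand.

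Hadh, the short-chain 3-hydroxyacyl-CoA dehydrogenase, was the most abundant gene of this group. It measured 279, 273, 311 and 279 CPM in WT_SE, and 281, 254, 284, 269 and 238 CPM in WT_EE, and the groups overlapped. The log2 fold change was -0.10 (SE 0.13, edgeR unadjusted p = 0.447, adjusted p = 0.915). Hadha, the alpha subunit of the mitochondrial trifunctional protein, measured 232, 200, 301 and 265 CPM in WT_SE, and 240, 181, 219, 226 and 238 CPM in WT_EE. Its groups overlapped, with a log2 fold change of -0.16 (SE 0.14, edgeR unadjusted p = 0.264, adjusted p = 0.833). Hadhb, the beta subunit, averaged 96.9 and 96.7 CPM (log2 fold change 0.01), but 35.4% of the 50-base words at its 3′ end also occur in other genes, mostly Gm13910. Acaa2, the mitochondrial 3-ketoacyl-CoA thiolase, averaged 169 and 149 CPM (-0.15), and WT_EE mouse 4 was lowest at 89.7 CPM.

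Oxidation of unsaturated fatty acids needs auxiliary enzymes, and of these Eci1 was called. Eci1 encodes a mitochondrial enoyl-CoA delta isomerase (chromosome 17, 24426641 to 24439348, plus strand). It measured 128, 142, 159 and 134 CPM in WT_SE, and 117, 80.2, 114, 46.4 and 106 CPM in WT_EE. All WT_EE mice lay below all WT_SE mice, and WT_EE mice 4 and 2 were the lowest, with 15 and 23 counts. The means were 141 ± 13.5 and 92.6 ± 29.6 CPM, and Eci1 was lower in WT_EE with a log2 fold change of -0.56 (SE 0.19, edgeR unadjusted p = 0.00654, Benjamini-Hochberg adjusted p = 0.392; exact permutation test p = 0.0159, two-sided). Without WT_EE mice 2 and 4 the value was -0.32 (unadjusted p = 0.078). Eci2, the related mitochondrial and peroxisomal isomerase, averaged 43.5 and 39.3 CPM (log2 fold change -0.12). Decr1, the mitochondrial 2,4-dienoyl-CoA reductase, averaged 113 and 106 CPM (-0.09) and was among the steadiest members, from 97.6 to 123 CPM.

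**Figure D3:**
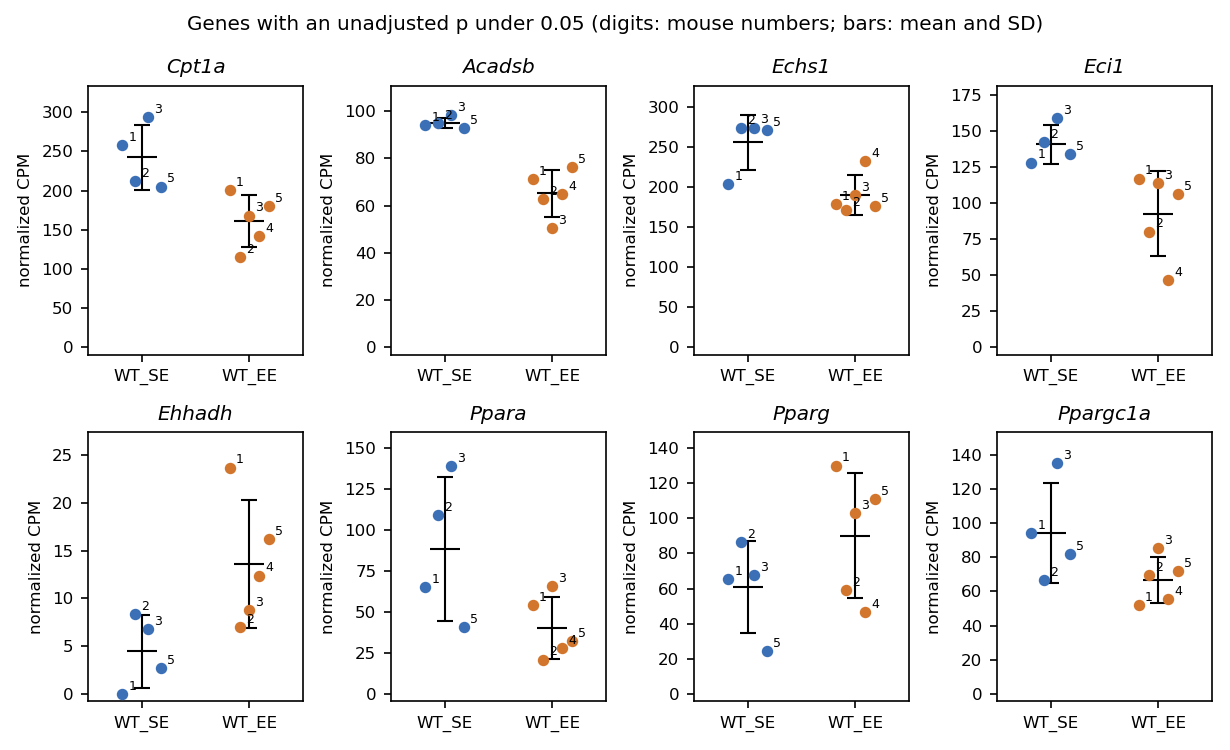
Normalized CPM (vertical axes, starting near 0) of the 8 genes with an unadjusted p-value under 0.05, 1 point per mouse with its number, blue for WT_SE and orange for WT_EE; bars give the mean and SD. Groups do not overlap for Cpt1a, Acadsb and Eci1, and all 4 WT_SE mice are at or under 8.35 CPM for Ehhadh.

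Peroxisomes shorten very long chains with enzymes of their own. Ehhadh, the bifunctional hydratase and dehydrogenase of the peroxisome, had counts of 0, 3, 2 and 1 in WT_SE mice 1, 2, 3 and 5, and 11, 2, 4, 4 and 7 in WT_EE mice 1 to 5. None of the WT_SE mice exceeded the floor, and neither did WT_EE mouse 2. Its means were 4.46 ± 3.8 and 13.6 ± 6.69 CPM, and it was called higher in WT_EE with a fitted log2 fold change of 1.64 (SE 0.64, edgeR unadjusted p = 0.0147, Benjamini-Hochberg adjusted p = 0.469; exact permutation test p = 0.0476, two-sided). Summed over mice and set against the library totals, the ratio of WT_EE to WT_SE was 3.36, with an exact counting interval of 1.36 to 9.92. The call was lost without WT_SE mouse 1 (1.22, unadjusted p = 0.0653) and without WT_EE mouse 1 (1.33, unadjusted p = 0.0706), as well as with the library-name part as a covariate (1.30, unadjusted p = 0.101) and in the L2 libraries (1.32, unadjusted p = 0.0837). Acaa1a, a peroxisomal 3-ketoacyl-CoA thiolase, measured 112, 109, 77.8 and 79.3 CPM in WT_SE, and 112, 76.7, 89.6, 86.6 and 83.3 CPM in WT_EE. The groups overlapped, with a log2 fold change of -0.07 (SE 0.19, edgeR unadjusted p = 0.722, adjusted p = 0.962), and 31.6% of its 3′ words are shared with Acaa1b.

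Electrons from the acyl-CoA dehydrogenases pass through the electron transfer flavoprotein, made of Etfa and Etfb, to the ubiquinone oxidoreductase Etfdh. Etfb measured 183, 217, 210 and 178 CPM in WT_SE, and 201, 167, 164, 179 and 183 CPM in WT_EE. The groups overlapped, with means of 197 ± 19.5 and 179 ± 14.6 CPM and a log2 fold change of -0.13 (SE 0.14, edgeR unadjusted p = 0.365, adjusted p = 0.881). Of its 3′ words, 58.1% are shared with the overlapping model Gm45233. Etfa averaged 108 ± 30.1 and 88.1 ± 26.4 CPM (log2 fold change -0.27), and without WT_EE mouse 1, the highest of its group, the value was -0.48 (unadjusted p = 0.0363). It was -0.44 (unadjusted p = 0.0496) without WT_SE mouse 5, the lowest of its group. Etfdh averaged 56.1 and 58.2 CPM (0.06), with an interval of -0.46 to 0.59.

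The 3 ketone body enzymes had log2 fold changes between -0.02 and 0.02. Oxct1, which activates acetoacetate in tissues that burn ketone bodies, measured 316, 312, 281 and 347 CPM in WT_SE, and 233, 418, 214, 436 and 280 CPM in WT_EE. WT_EE mice 2 and 4 were above every WT_SE mouse and the other 3 WT_EE mice below every WT_SE mouse, so the SD was 27.2 CPM in WT_SE and 104 CPM in WT_EE around means of 314 and 316 CPM. The log2 fold change was -0.02 (SE 0.17, edgeR unadjusted p = 0.912, adjusted p = 0.99). WT_EE mice 2 and 4 had the highest smooth muscle sums and also the smallest library totals of WT_EE, 295535 and 336967 counts. The slope of the log count of Oxct1 on the log of the library total was 0.04, where 1 means proportional growth. By edgeR the value was -0.32 (unadjusted p = 0.00794) with the smooth muscle level as a covariate and -0.38 (unadjusted p = 0.00367) without WT_EE mice 2 and 4. Whether the split goes with muscle content or with library total was not tested. Bdh1, the mitochondrial 3-hydroxybutyrate dehydrogenase, averaged 223 ± 20 and 226 ± 22.5 CPM, with a log2 fold change of 0.02 and an interval of -0.26 to 0.30. Acat1, the mitochondrial acetoacetyl-CoA thiolase, averaged 157 ± 20.3 and 155 ± 38.5 CPM, with a log2 fold change of 0.00 and an interval of -0.33 to 0.34. The fall measured for Cpt1a lies outside both intervals, but its own interval (-0.87 to -0.24) overlaps them, and a difference in change between the genes was not tested.

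The regulators moved in both directions. Ppara encodes the PPAR isotype best known for switching on fatty acid oxidation in liver (chromosome 15, 85734983 to 85802819, plus strand). It measured 65.3, 109, 139 and 41 CPM in WT_SE mice 1, 2, 3 and 5, and 54, 20.9, 65.6, 27.8 and 32.4 CPM in WT_EE mice 1 to 5, from 6 to 41 counts. The groups overlapped at WT_SE mouse 5, which was below WT_EE mice 1 and 3, and the level varied 6.63-fold between WT_SE mouse 3 and WT_EE mouse 2. The means were 88.4 ± 43.7 and 40.1 ± 18.8 CPM, and Ppara was lower in WT_EE with a log2 fold change of -1.04 (SE 0.29, edgeR unadjusted p = 0.00109, Benjamini-Hochberg adjusted p = 0.202). The exact permutation test of the levels gave p = 0.0556 (two-sided). Ppara kept an unadjusted p-value under 0.05 in all 26 alternatives, with values from -1.29 to -0.72.

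Pparg, the isotype of adipocytes that is also abundant in colonocytes, measured 65.3, 86.3, 67.6 and 24.6 CPM in WT_SE, and 130, 59.3, 103, 46.4 and 111 CPM in WT_EE. WT_EE mice 1, 3 and 5 were above every WT_SE mouse, and WT_EE mice 2 and 4 were inside their range. The means were 61 ± 26 and 89.8 ± 35.4 CPM, and Pparg was called higher with a log2 fold change of 0.61 (SE 0.27, edgeR unadjusted p = 0.0295, Benjamini-Hochberg adjusted p = 0.572; exact permutation test p = 0.222, two-sided). The call was lost in 7 of 26 alternatives, among them the omission of WT_SE mouse 5 (0.35, unadjusted p = 0.181) and of WT_EE mouse 1 (0.45, unadjusted p = 0.127), 3 (0.57, unadjusted p = 0.0526) or 5 (0.54, unadjusted p = 0.0677). The sum of 14 adipocyte markers was highest in WT_SE mouse 1 at 1149 CPM, against 195 to 660 CPM in the other mice, and Ucp1 had no count in any mouse. Ppard, the third isotype, measured 151, 136, 112 and 120 CPM in WT_SE, and 155, 143, 146, 179 and 118 CPM in WT_EE. The groups overlapped, with a log2 fold change of 0.18 (SE 0.16, edgeR unadjusted p = 0.28, adjusted p = 0.841).

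Ppargc1a encodes PGC-1 alpha, a coactivator that raises mitochondrial biogenesis and oxidation. It measured 94, 66.8, 135 and 82 CPM in WT_SE, and 51.8, 69.7, 85.2, 55.7 and 71.7 CPM in WT_EE. The groups overlapped, and WT_SE mouse 3 stood highest. The means were 94.5 ± 29.4 and 66.8 ± 13.4 CPM with a log2 fold change of -0.48 (SE 0.22, edgeR unadjusted p = 0.0374, Benjamini-Hochberg adjusted p = 0.603; exact permutation test p = 0.0794, two-sided), and without WT_SE mouse 3 it was -0.26 (unadjusted p = 0.265). This was the least steady call, lost in 12 of 26 alternatives. It shrank to -0.15 with the library-name part as a covariate (unadjusted p = 0.584) and to -0.14 in the L2 libraries (unadjusted p = 0.621), and the call was also lost without WT_SE mouse 1 (-0.47, unadjusted p = 0.0652), WT_EE mouse 1 (-0.38, unadjusted p = 0.113) or WT_EE mouse 4 (-0.42, unadjusted p = 0.0826). Pdk4, a pyruvate dehydrogenase kinase that spares glucose and is a PPAR target, had counts of 1, 2, 0 and 0 in WT_SE, and 3, 3, 3, 0 and 6 in WT_EE. All but WT_EE mouse 5 were at or under the floor. The ratio of summed counts over library totals was 3.6 (exact counting interval 1.02 to 19.4), and the gene was not called (fitted log2 fold change 1.69, SE 0.89, edgeR unadjusted p = 0.0663, adjusted p = 0.667). It was called without WT_SE mouse 2 (2.63, unadjusted p = 0.0264) and without WT_EE mouse 4 (1.96, unadjusted p = 0.0275).

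Summed over roles, the carnitine shuttle genes stood at 440 to 561 CPM in WT_SE and 371 to 458 CPM in WT_EE. The isomerases and dienoyl-CoA reductase summed to 273 to 321 CPM and 201 to 267 CPM, without overlap. The ketone body enzymes summed to 687 to 699 CPM in WT_SE and 566 to 813 CPM in WT_EE. The ketone body sums of WT_EE spread to both sides of those of WT_SE, and the shuttle sums overlapped through WT_EE mouse 1 and WT_SE mouse 5. Over the 30 members other than the regulators the sum was 4325, 4277, 4708 and 4133 CPM in WT_SE, and 4009, 3876, 3825, 4023 and 3980 CPM in WT_EE, so that every WT_EE mouse was below every WT_SE mouse. The sums of all other roles overlapped, such as the acyl-CoA dehydrogenases at 719 to 964 CPM in WT_SE and 729 to 770 CPM in WT_EE. The sum of the other pathway genes, described further on, also overlapped (7120 to 7332 CPM and 6898 to 7222 CPM). How often sums of other gene sets lack overlap was not tested. The sums over members hold the called genes, and also abundant genes whose counts grew less than library totals, and are given as a description.

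By ileum and proximal colon markers, the pieces of colon differed in position along the gut. Slc10a2, the bile acid transporter of the ileum, had 26, 103, 110 and 16 counts in WT_SE mice 1, 2, 3 and 5, and 107, 3, 117, 4 and 10 counts in WT_EE mice 1 to 5. Osr2 followed the same split, with 81 to 93 counts in the same 4 mice and 0 to 7 in the other 5, and the 7 ileum and proximal colon markers summed to 848 to 1177 CPM in those 4 mice and 202 to 397 CPM in the others. Hoxb13, a gene of the distal colon, had 56 counts in WT_SE mouse 5 and 45 in WT_EE mouse 2, but none in WT_SE mice 2 and 3 and WT_EE mouse 1. It had 21 counts in WT_EE mouse 3, which was rich in Slc10a2. The distal colon list of 7 genes was mixed. Hoxa13 was also lower in the 4 mice rich in Slc10a2, whereas Hoxd10, Hoxd11 and B4galnt2 were higher there. Hoxd10 had 5 to 22 counts in those 4 mice and 0 to 2 in the others. The summed level of the list was 188 to 304 CPM in those 4 mice and 197 to 347 CPM in the others. The epithelial markers, 9 genes such as Epcam, were present throughout at 2523 to 3365 CPM. Ppara was higher in the mice with more Slc10a2, in WT_SE (109 and 139 against 41 and 65.3 CPM) as in WT_EE (54 and 65.6 against 20.9 to 32.4 CPM).

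Within each set of mice the environments were then set side by side. Among the 4 mice with over 100 counts of Slc10a2, Ppara was at 109 and 139 CPM in WT_SE against 54 and 65.6 CPM in WT_EE, and among the 5 other mice at 41 and 65.3 CPM against 20.9 to 32.4 CPM. In the set of 5 the WT_SE mice also had more Slc10a2 (16 and 26 counts) than the WT_EE mice (3 to 10), whereas in the set of 4 the counts of the environments overlapped. Fitted in the set of 5 alone, 2 WT_SE against 3 WT_EE mice, 5 of the 8 genes were called by edgeR, with log2 fold changes of -0.64 for Cpt1a (unadjusted p = 0.00152), -0.71 for Eci1 (unadjusted p = 0.00585), -0.94 for Ppara (unadjusted p = 0.0153), 2.91 for Ehhadh (unadjusted p = 0.0159) and 0.73 for Pparg (unadjusted p = 0.0287). Their Benjamini-Hochberg adjusted p-values from edgeR lay between 0.134 and 0.516. In this fit 5 of the 35 genes and 1302 of all 16266 genes tested (8%) were called. Ehhadh rested on few molecules in these mice, with 0 and 1 counts in WT_SE and 2, 4 and 7 in WT_EE. The levels of Pparg overlapped, at 24.6 and 65.3 CPM in WT_SE and 46.4 to 111 CPM in WT_EE. The 8 genes were chosen by their calls in all 9 mice, these 5 included, so these refits are no independent support. The calls of Acadsb, Echs1 and Ppargc1a (-0.41, unadjusted p = 0.166) were lost. With the level of the 7 ileum and proximal colon markers as a covariate in all 9 mice, edgeR called 7 of the 35 genes. Of all genes 7.26% were called. The 7 were the called genes of the main fit other than Ppargc1a, in the same mice, so this fit is no independent support either. The log2 fold change of Ppara was then -0.72 (edgeR unadjusted p = 0.00403). No fit was made in the set of 4.

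**Figure D4:**
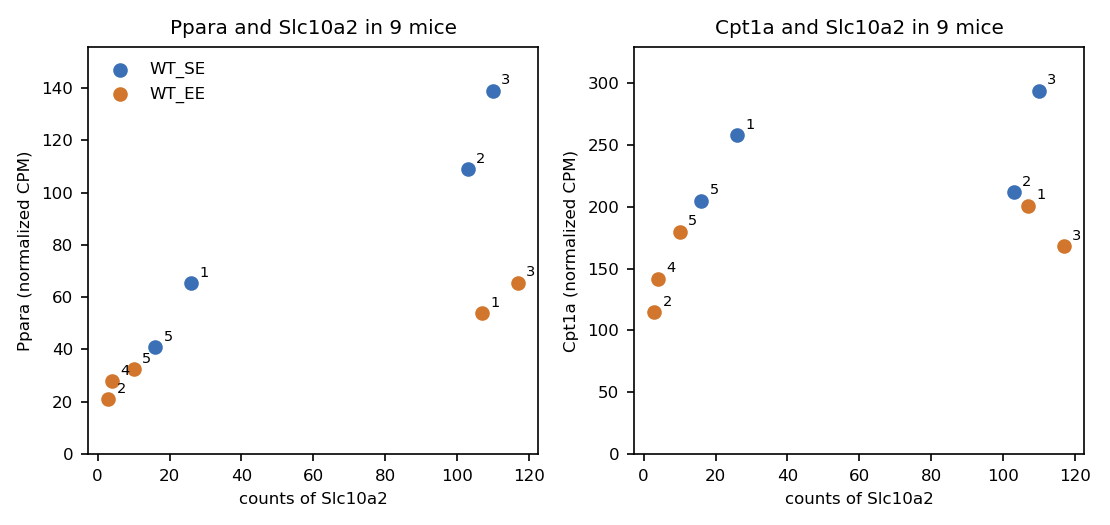
Normalized CPM of Ppara (left) and Cpt1a (right) on the vertical axes against counts of Slc10a2 in each of the 9 mice, numbered, blue for WT_SE and orange for WT_EE. Ppara is higher at high Slc10a2 in both environments, and at over 100 counts of Slc10a2 WT_SE mice 2 and 3 lie above WT_EE mice 1 and 3 for both genes.

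Other genes of fatty acid and ketone metabolism were taken from a list of 96, of which 87 had a count and 85 were tested. Of these, 4 were called higher and 2 lower, together 7.06%, close to the 7.65% of all genes. The lowest Benjamini-Hochberg adjusted p-value from edgeR was 0.329, and the median log2 fold change was -0.03. The 28 tested oxidation enzymes outside the 35 genes held no call (median -0.09). The lower genes were Crot, a peroxisomal carnitine octanoyltransferase, and Cyp4b1, a fatty acid hydroxylase. Crot measured 83.5, 94.7, 71 and 68.3 CPM in WT_SE, and 62.6, 59.3, 63.4, 46.4 and 57.8 CPM in WT_EE, without overlap, with a log2 fold change of -0.45 (SE 0.21, edgeR unadjusted p = 0.044; exact permutation test p = 0.00794, two-sided). Cyp4b1 had -1.03 (SE 0.46, edgeR unadjusted p = 0.0321) and followed the Slc10a2 split, at 45.3 to 118 CPM in the 4 mice with over 100 counts and 3.09 to 18.3 CPM in the other 5.

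Among the higher genes, Ffar2, a receptor for short-chain fatty acids, averaged 120 ± 43.4 CPM in WT_SE and 159 ± 23.9 CPM in WT_EE (log2 fold change 0.39, SE 0.19, edgeR unadjusted p = 0.0431). Txnip, a glucose-responsive inhibitor of thioredoxin, averaged 208 ± 35.2 and 264 ± 27.2 CPM (0.34, SE 0.14, edgeR unadjusted p = 0.0216). Fabp3, the heart-type fatty acid-binding protein, and Cpt1c, the brain-type CPT1, were also called, at means of 1.37 and 2.24 CPM in WT_SE and 11.8 and 8.66 CPM in WT_EE, where every WT_SE count of both genes, and all WT_EE counts of Cpt1c except that of mouse 4, were at or under the floor. Slc5a8, a sodium-coupled butyrate transporter, averaged 207 ± 27.3 and 231 ± 44 CPM (0.13, SE 0.15, edgeR unadjusted p = 0.383, adjusted p = 0.891).

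Counts of well expressed genes grew less than library totals. Across the 9 mice, the slope of the log of summed counts on the log of the library total, where 1 means proportional growth, was 1.30 for genes with a mean of 20 to 40 counts (members 1.42), 1.04 at 40 to 80 counts (members 1.13) and 0.55 at 80 to 120 counts (members 0.59). The last class held 8 members, Oxct1, Hadh and the called gene Echs1 among them. The largest libraries were those of WT_EE mice 1, 3 and 5, at 454043, 444520 and 426436 counts. Whether differences between mice or between the environments are understated or overstated for those 8 genes was not tested.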

How the data were processed

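Colon libraries of 9 wild-type mice were used. The authors made 3′ libraries carrying unique molecular identifiers, mapped them to GRCm38 using STAR, and deposited raw counts of molecules per gene in 1 table per mouse. The submitters' processing notes name fastp 0.20.0, STAR 2.7.0f, featureCounts 1.6.0, Subread and UMI-tools, while their roles and settings, strand included, are not given in the sources used here. Counts were joined on Ensembl identifiers, a gene missing from a mouse's table was set to 0, and symbols and positions came from GENCODE mouse release M21.

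Genes reaching 4 CPM in 1 library or more were tested with edgeR 4.0.16 in R 4.3.3 (TMM normalization, quasi-likelihood F test, environment as the only term), with Benjamini-Hochberg adjustment over all 17441 genes. The common biological coefficient of variation was 15.1%. For single levels, exact permutation tests (two-sided) used all 126 assignments of 9 mice to groups of 4 and 5. The fit was tested on simulated data. DESeq2 1.42.0, limma-voom (limma 3.58.1), other filters, normalizations and covariates, and each mouse left out in turn were tried as alternatives, and 5 alternatives on markers and mice were added after seeing the data. Promoters came from RefSeq, and 3′ ends were compared by words of 50 bases over the last 500 bases of each transcript.

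The members and lists were chosen with earlier results of these data known. Some genes were given with levels or counts in every mouse, the log2 fold change, its standard error and an adjusted p-value from edgeR. These were every called member, Slc16a1, Cpt1a, Acadm, Hadha, Pdk4 and Ppargc1a, and the most abundant member of each role. Other genes of the pathway were named when called, as was Slc5a8, and a further gene of that rule is not reported here. Slc10a2, Osr2, Hoxb13 and the other distal colon genes were named after their values were seen. No 2 libraries of a group agreed within sampling noise (chi-square per degree of freedom 1.17 to 2.3), so each mouse was counted once. The labels do not say which mice shared a cage or litter, so the p-values cover the spread between these 9 animals and do not separate cage from environment.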

Additional observations from a re-analysis of the deposited data

Results flagged for a closer look

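Among 70 groups of mice looked at, 2 for each of the 35 genes, 4 held a mouse set apart from the rest of its group by Dixon's criterion, where about 3.5 would be set apart by chance. Slc25a20 was at 223 CPM in WT_EE mouse 2 and between 174 and 179 CPM in the other WT_EE mice. Echs1 was at 204 CPM in WT_SE mouse 1 and between 271 and 274 CPM in the other WT_SE mice. This mouse lay within the WT_EE range of 171 to 232 CPM. Hadh was at 311 CPM in WT_SE mouse 3, against 273 to 279 CPM in the others. Etfa was at 134 CPM in WT_EE mouse 1, against 71.1 to 87.9 CPM in the others.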

How the results depend on the processing

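No called gene changed direction under any alternative, and changes of sign among uncalled genes under the alternatives were not read. The 8 calls among the 35 genes became 5 with the library-name part as a covariate, 4 with the libraries named L2 alone, 5 without the 4 mice with over 100 counts of Slc10a2, 4 at a p-value limit of 0.01, and 6 to 9 when single mice were left out. The 2 higher calls became 1 with a filter of 4 CPM in 4 libraries, 0 with a mean of at least 5 counts, 1 with the DESeq2 Wald test, 1 with the library-name covariate, 1 with the L2 libraries and 0 at the limit of 0.01, and ranged from 0 to 3 when single mice were left out. The omission of WT_EE mouse 1 left 0 of them, and that of WT_SE mouse 1 or 5 or WT_EE mouse 3 or 5 left 1. The 6 lower calls became 3 with the L2 libraries and 3 without the 4 mice rich in Slc10a2, and ranged from 5 to 7 when single mice were left out. The number of adjusted calls went from 0 to 2 (Ppara and Cpt1a) when every gene with a count was tested, and ranged from 0 to 1 when single mice were left out, the 1 being Ppara without WT_SE mouse 5. The median log2 fold change went from -0.08 to -0.13 with upper quartile normalization, where the median of all genes was -0.04, to -0.05 with the library-name covariate, -0.04 with the L2 libraries, -0.05 with the smooth muscle covariate, -0.05 without WT_EE mice 2 and 4, and -0.03 without the mice rich in Slc10a2. It ranged from -0.13 to -0.05 when single mice were left out. The cause of these shifts was not tested.

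Mice of the same number in both environments did not deviate together (correlations of -0.02, 0.03, 0.16 and 0.17 over 5812 genes, and 0 of 4 WT_SE mice closest to their own number), so the numbers were not taken as pairs. With the mouse number as a replicate block, 9 of the 35 genes were called. Over all genes, the 1334 calls became 643 with DESeq2, 688 with the library-name covariate, 680 with the L2 libraries and 899 without WT_SE mouse 3. Ppara kept its call in 26 of 26 alternatives, Echs1 and Eci1 in 25, Cpt1a and Acadsb in 24, Ehhadh in 21 of 25, Pparg in 19 and Ppargc1a in 14. At these depths, changes of Ehhadh, Pdk4 and Acot1 rest on few molecules, and their directions are not read beyond the counts given.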
